A study of Mus musculus with 12 samples.

Results

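The G protein beta and gamma subunits described here are 8 genes: the gamma subunits Gngt2, Gng2, Gng5, Gng10 and Gng12 and the beta subunits Gnb1, Gnb2 and Gnb4. They were taken by symbol from a count table of 12339 genes, and all 8 were listed. The family was chosen by the diet values of Gngt2, which was higher on a high-fat diet in both genotypes. Those values, and the genotype values of Gngt2, which come from the same libraries, are given as a description. All values of the other 7 genes were tested.

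RNA was sequenced from macrophages drawn into the mouse peritoneum with thioglycolate, a sterile irritant, and washed out. The 4 groups were WT on chow, WT on the high-fat diet (HFD), meKO on chow and meKO on HFD, with 3 libraries each. Every animal of both genotypes and diets had received AAV8PCSK9 at 8 weeks of age, a virus used to take the LDL receptor off liver cells, and the diets then ran for 4 weeks. Myeloid protein kinase C epsilon, encoded by Prkce, is named in the series title, and meKO is read here as its loss in myeloid cells. The labels give neither the recombinase that makes the knockout nor the strain, and they describe 8 animals per genotype, 4 of them on HFD, against the 6 libraries per genotype analysed here. Nothing in the labels states that a library is a separate animal, so p-values measure the spread between these libraries.

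A G protein-coupled receptor acts through a G protein made of an alpha subunit and a tightly bound pair of a beta and a gamma subunit. When the receptor is activated, the alpha subunit and the beta-gamma pair part, and both act on other proteins. In myeloid cells the freed pair is best known for switching on phosphoinositide 3-kinase gamma and phospholipase C beta downstream of chemoattractant receptors. The beta subunit is folded by a chaperonin before it meets its gamma partner, and the gamma subunit is anchored in the membrane by a lipid.

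That lipid is added at the end of the gamma protein, in a stretch called the CaaX box, and the coding ends are shown because they separate Gngt2 from the other 4 gamma subunits of the family. Each line gives the last 30 coding bases of the gene with its stop codon, read 5′ to 3′ on the coding strand from the GENCODE transcripts of mouse build GRCm38. The 12 capitals are the 4 codons of the CaaX box.
Gngt2: aaggagaaaggcactTGTGTGCTAAGCtga
Gng11: aaagaaaagggcagcTGTGTCATTTCAtaa
Gng2: gagaagaagttcttcTGCGCCATCCTTtaa
Gng5: agaccccagaaagtcTGCTCCTTTTTGtag
Gng10: cgggagcccaggtccTGTGCTCTACTTtga
Gng12: aaggataagaagaccTGCATCATCTTAtag

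The last codon before the stop was AGC in Gngt2 and TCA in Gng11, against CTT, TTG, CTT and TTA in Gng2, Gng5, Gng10 and Gng12. As background, the gamma subunits of Gngt2 and Gng11 are known to carry a farnesyl lipid and the other gamma subunits shown a geranylgeranyl lipid. Gng11 is no member of the 8 and is shown as the other gamma gene of that kind in the table. The coding sequences were short, from 207 bases in Gng5 and Gng10 to 219 bases in Gng12 among the 5 gamma members, and each gene had the same end in all of its annotated transcripts with a complete end.

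In build GRCm38 (RefSeq GRCm38.p6) the 8 genes lay on 6 chromosomes. Gngt2 (Entrez gene 14710) spanned chr11:95841772-95845734 on the plus strand, Gng2 (14702) chr14:19872558-19977825 on the minus strand, and Gng5 (14707) chr3:146499836-146505543 on the plus strand. Gng10 (14700) lay at chr4:59035156-59041899 and Gng12 (14701) at chr6:66896397-67021361, both on the plus strand. Gnb1 (14688) lay at chr4:155491300-155559269 on the plus strand, Gnb2 (14693) at chr5:137528127-137533449 and Gnb4 (14696) at chr3:32578587-32616673, both on the minus strand.

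Library totals ran from 25844958 to 37282772 counts, and counts of the 8 genes ran from 139 to 19869 per library. Levels are given as CPM, a gene's counts relative to the library total, put on the usual common scale and corrected by TMM factors, which lay between 0.936 and 1.09. WT chow replicates 1 and 2 stood apart: across genes, the rank correlation of a library's deviation with transcript length was 0.62 and 0.66 in them, against -0.45 to 0.14 in the other 10. So did meKO chow replicate 2: Lyz2, the macrophage lysozyme gene, stood at 69.3 CPM there, while the 5 remaining meKO libraries held 16290 to 21310 CPM and the 6 WT libraries 30480 to 53840 CPM. All 8 macrophage markers were listed, with sums of 5758 to 5909 CPM in WT chow, 5146 to 5751 in WT HFD, 5761 to 6439 in meKO chow and 5194 to 5995 in meKO HFD, so that every WT HFD library lay below every WT chow library. Prkce stood at 2.01 to 4.44 CPM in the 6 WT libraries and at 0.950 to 1.78 CPM in the 6 meKO libraries. A difference in such bulk RNA can come from the number of cells of a type or from the RNA per cell, and these cannot be told apart here.

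Gngt2, first described as the gamma subunit of cone photoreceptors, differed most with diet among the 8 genes. The WT chow libraries held 93.2, 126.2 and 111.7 CPM of it, against 318.5, 285.9 and 366.7 CPM on HFD. In meKO it was 157.1, 221.2 and 159.6 CPM on chow against 299.5, 350.7 and 317.5 CPM on HFD. Every HFD library lay above every chow library, and the chow libraries were split by genotype, with all meKO above all WT. The log2 difference between diets was 1.55 ± 0.16 (SE; 2.93-fold) in WT and 0.85 ± 0.15 (1.80-fold) in meKO, and the difference between these was -0.71 ± 0.22. These are the values the choice rests on, and they are not tested. Without meKO chow replicate 2, the library of low Lyz2 and the highest of the 6 chow libraries in Gngt2, the values were 1.02 ± 0.15 in meKO and -0.54 ± 0.19 for the difference. The group means were 110.4 ± 16.5 CPM in WT chow, 323.7 ± 40.7 in WT HFD, 179.3 ± 36.3 in meKO chow and 322.6 ± 26.0 in meKO HFD (SD, n = 3). The means of the 2 HFD groups lay within 1 SD of each other.

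**Figure D1:**
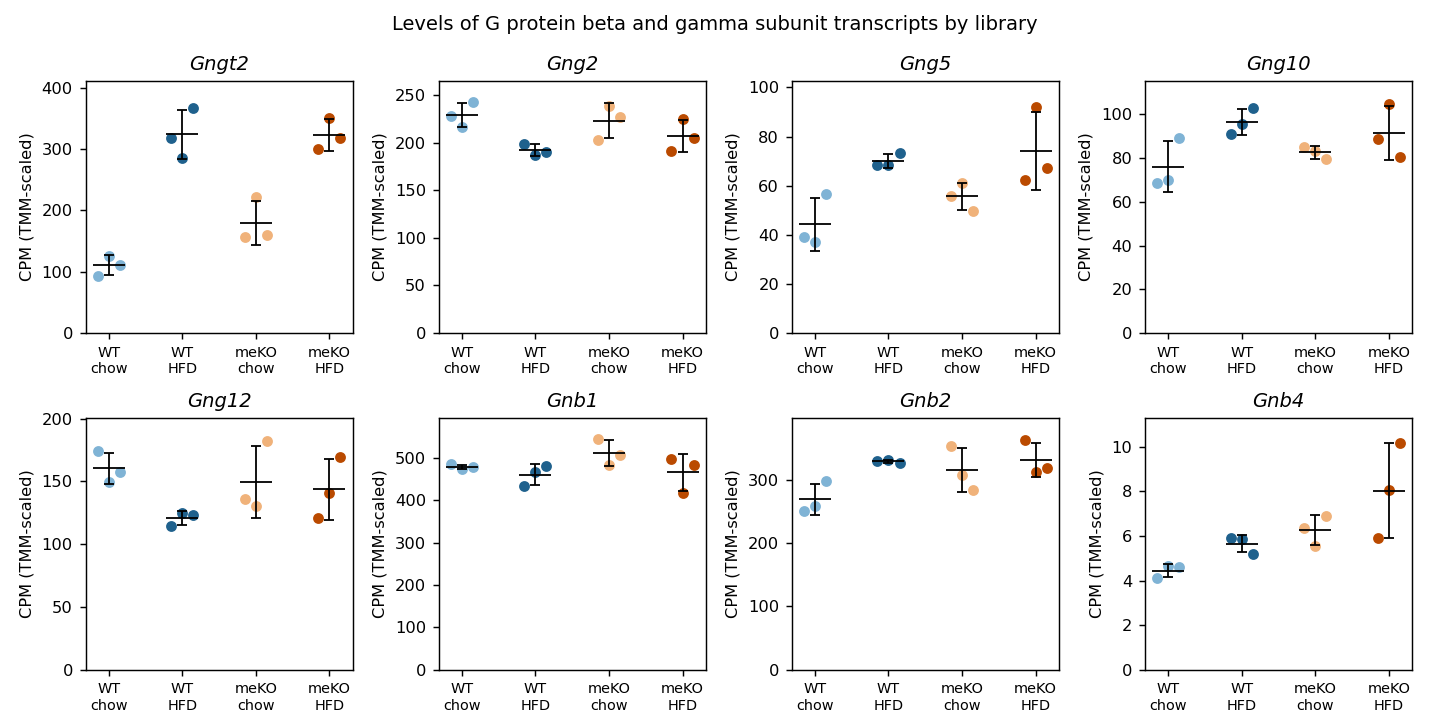
CPM of each of the 8 genes (vertical axes, CPM with TMM factors, starting at 0) in the 4 groups; points are libraries, the long bar is the group mean and the error bar the SD (n = 3). Gngt2 shows all 6 HFD libraries above all 6 chow libraries, while Gnb1 stays between 416.7 and 544.0 CPM throughout.

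Among the other 7 genes, 1 rose in WT on HFD and 0 fell, by edgeR's quasi-likelihood test at a Benjamini-Hochberg adjusted p under 0.05 over all genes; of all 12339 genes, 21.3% were called in that comparison, 9.50% as higher and 11.8% as lower. The gene that rose was Gng5. At an unadjusted p under 0.05 there were 5 of the 7 (background 39.4%), and the WT groups did not overlap for 6 of the 7, 4 higher and 2 lower (background 39.3%, of which 19.4% higher and 19.9% lower). In meKO 0 of the 7 were called by edgeR (background 0.105%) and 1 had an unadjusted p under 0.05 (background 15.9%). DESeq2 also called 0 of the 7 in meKO (background 1.84%). The groups did not overlap there for 1 gene, again Gng5, which was higher (background 19.7%, with 10.3% higher). The median log2 difference of the 7 was 0.29 in WT and 0.07 in meKO, against -0.03 and -0.01 over all genes. The share of all genes called in WT was itself 0.778% without WT HFD replicate 3, 1.05% without WT chow replicate 1, 2.59% without WT chow replicate 2, 3.73% without WT HFD replicate 1, 13.6% without WT HFD replicate 2 and 39.9% without WT chow replicate 3.

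Gng5, a widely expressed gamma subunit, was the member that rose. The WT level was 39.0, 37.2 and 56.7 CPM on chow and 68.4, 68.3 and 73.2 CPM on HFD. The meKO level was 56.0, 61.0 and 49.9 CPM on chow and 62.4, 92.1 and 67.4 CPM on HFD. Chow and HFD libraries did not overlap in either genotype, nor across all 12. The rise in WT was 0.66 ± 0.17 on the log2 scale (SE; edgeR adjusted p = 0.0228), and the value in meKO was 0.41 ± 0.17 (adjusted p = 0.287), or 0.22 without meKO HFD replicate 2. Averaged over genotypes the rise was 0.54 ± 0.12 (adjusted p = 0.00961), and it passed under each of the 21 alternatives run for it. The difference between genotypes was -0.25 ± 0.24 (interaction, adjusted p = 0.851). The rise in WT missed the threshold without WT chow replicate 1 (adjusted p = 0.111), WT chow replicate 2 (0.0962), WT HFD replicate 1 (0.0603) or WT HFD replicate 3 (0.0938), within a range of 1.59e-04 to 0.111 over its 22 alternatives.

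A listed pseudogene of Gng5 moved with it. Gng5-ps (chr16:22294988-22295478) stood at 19.4, 25.4 and 29.8 CPM in WT chow and at 43.2, 37.8 and 51.9 CPM in WT HFD. It rose by 0.83 ± 0.19 in WT (SE; edgeR adjusted p = 0.0172) and by 0.61 ± 0.14 averaged over genotypes (adjusted p = 0.00929). In meKO the groups overlapped, at 34.8, 38.8 and 29.6 CPM on chow and 35.0, 55.6 and 44.1 CPM on HFD, and the value was 0.38 ± 0.19 (adjusted p = 0.339). The length and GC correction brought Gng5-ps to 0.47 in WT (0.0351) and 0.28 averaged (0.0429). The WT rise missed the threshold without WT chow replicate 1 (adjusted p = 0.0883), WT chow replicate 2 (0.0583), WT HFD replicate 1 (0.0507) or WT HFD replicate 3 (0.0866). The ratio of Gng5 to Gng5-ps counts averaged 1.79 ± 0.289 in WT chow, 1.60 ± 0.200 in WT HFD, 1.62 ± 0.0557 in meKO on chow and 1.66 ± 0.126 in meKO on HFD (SD, n = 3). Gng5 shared 5.94% of its 50-base stretches with other annotated genes, and the share with Gng5-ps alone was not taken. How the authors split reads between a gene and its pseudogene is not given in the sources used here, so the values of both are uncertain.

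Gng10, another widely expressed gamma subunit, was higher in WT HFD without passing. Its WT level was 68.7, 70.1 and 89.4 CPM on chow and 91.0, 95.4 and 102.8 CPM on HFD, with no overlap. Its meKO level was 84.99, 83.5 and 79.5 CPM on chow and 88.9, 104.7 and 80.5 CPM on HFD, and these overlapped. The log2 difference was 0.34 ± 0.13 in WT (SE; edgeR adjusted p = 0.0638), 0.14 ± 0.13 in meKO (0.564) and 0.24 ± 0.09 averaged (0.0516). DESeq2 called the WT difference (adjusted p = 0.0387), while a correction for transcript length and GC content turned it to -0.05, over a range of adjusted p from 0.00152 to 0.729. The WT difference also passed without WT chow replicate 3 (0.48; 0.00635) or replicate 2 of meKO HFD (0.34; 0.0428). Gng10 shares 71.5% of its 50-base stretches with Gm20503, an annotated gene of the same strand that is not in the count table.

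Gng2 and Gng12, 2 gamma subunits of the geranylgeranyl kind, were lower in WT HFD without passing. Gng2 stood at 228.3, 216.8 and 242.3 CPM in WT chow and at 198.7, 186.7 and 190.7 CPM in WT HFD. In meKO it stood at 203.2, 239.0 and 227.1 CPM on chow and at 191.4, 224.4 and 204.6 CPM on HFD. The WT groups of Gng2 did not overlap, and the meKO groups did. Its log2 difference was -0.26 ± 0.10 in WT (SE; edgeR adjusted p = 0.0779) and -0.11 ± 0.10 in meKO (0.586). With library totals in place of TMM factors the WT difference passed at -0.34 (adjusted p = 0.0246), while the length and GC correction brought it to -0.07 (0.733), the ends of its range of values. Gng12 stood at 174.0, 149.9 and 157.3 CPM in WT chow and at 114.4, 124.7 and 123.3 CPM in WT HFD, again with no overlap. The meKO libraries of Gng12 held 136.1, 130.5 and 182.5 CPM on chow and 121.2, 140.5 and 169.7 CPM on HFD, which overlapped widely. The log2 difference of Gng12 was -0.41 ± 0.14 in WT (adjusted p = 0.0564) and -0.06 ± 0.14 in meKO (0.866). DESeq2 (adjusted p = 0.0407) and a fit to the 6 WT libraries alone (0.0344) called Gng12 in WT, over a range of 0.00707 to 0.267, as did the fits without meKO chow replicate 3 (0.0381) or meKO HFD replicate 1 (0.0409). The length and GC correction brought it to -0.23 (0.267).

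The beta subunits Gnb1 and Gnb2, which pair with most gamma subunits in blood cells, differed in how they stood on the 2 diets. Gnb1, which had more reads than any other of the 8 genes in every library, stood at 484.2, 473.7 and 477.4 CPM in WT chow, 433.1, 466.7 and 481.5 in WT HFD, 544.0, 483.4 and 507.1 in meKO chow, then 497.3, 416.7 and 482.6 in meKO HFD. All 4 groups of Gnb1 overlapped with at least 1 other. Its log2 difference between diets was -0.06 ± 0.10 in WT (SE; edgeR adjusted p = 0.70) and -0.14 ± 0.10 in meKO (0.495), and it was called under 0 of the 22 alternatives in either genotype. Gnb2 stood at 251.1, 257.6 and 297.0 CPM in WT chow and at 329.6, 330.2 and 325.6 CPM in WT HFD, with no overlap and little spread on HFD. In meKO it stood at 352.2, 307.6 and 284.2 CPM on chow and at 362.1, 312.6 and 317.9 CPM on HFD, which overlapped. The log2 difference of Gnb2 was 0.29 ± 0.11 in WT (adjusted p = 0.0693) and 0.07 ± 0.11 in meKO (0.759). DESeq2 called the WT difference of Gnb2 (adjusted p = 0.0321), as did the length and GC correction at 0.38 (0.0158) and the fit without WT chow replicate 3 at 0.38 (0.0177), over a range of 0.00202 to 0.223.

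The proportion of these beta transcripts also differed between diets. The ratio of Gnb1 to Gnb2 counts was 1.93, 1.84 and 1.61 in WT chow and 1.31, 1.41 and 1.48 in WT HFD. In meKO the ratio was 1.55, 1.57 and 1.78 on chow and 1.37, 1.33 and 1.52 on HFD. Every HFD library had a lower ratio than every chow library of its genotype. This ratio was looked at after the values of both genes were known and was not tested.

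Gnb4, a beta subunit of low level here, was measured with 139 to 256 counts per library. It stood at 4.10, 4.64 and 4.60 CPM in WT chow, 5.92, 5.85 and 5.20 in WT HFD, 6.35, 5.56 and 6.88 in meKO chow, then 5.90, 8.05 and 10.2 in meKO HFD. The WT chow libraries were the 3 lowest of the 12, and the highest 2 were from meKO HFD. The log2 difference between diets was 0.35 ± 0.19 in WT (SE; edgeR adjusted p = 0.181), 0.36 ± 0.18 in meKO (0.349) and 0.35 ± 0.13 averaged (0.0565). DESeq2 called the averaged difference (adjusted p = 0.0371, range 0.00468 to 0.151), and it passed without WT chow replicate 3 (0.0498) or replicate 1 of meKO HFD (0.0111). The WT value was 0.61 with the length and GC correction (0.0568), and the meKO value 0.15 without meKO HFD replicate 3.

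**Figure D2:**
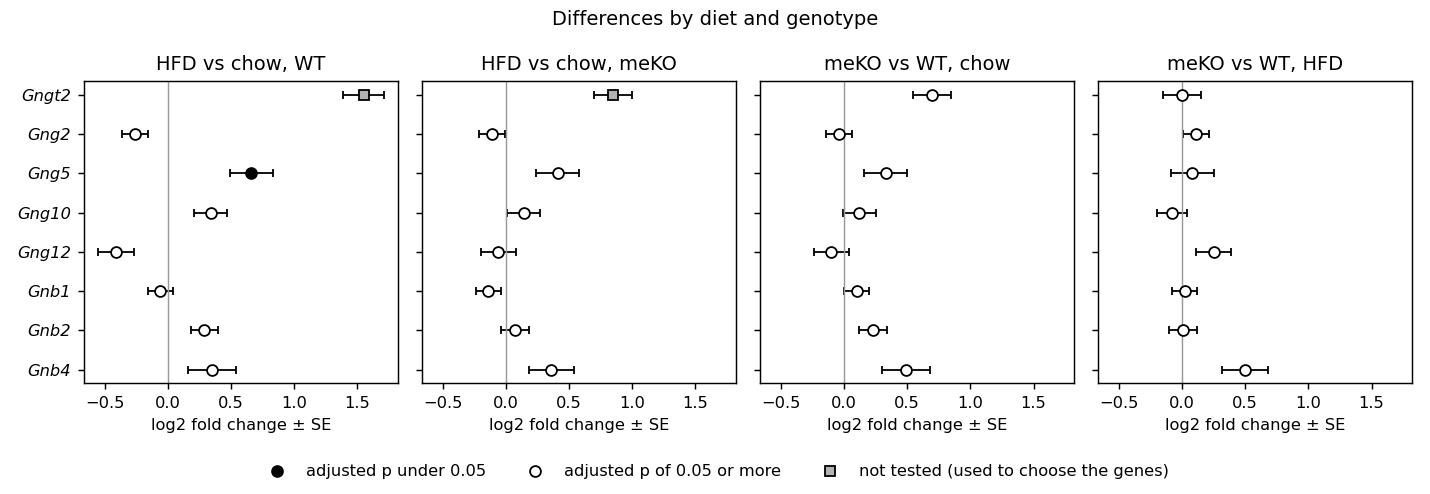
Log2 fold change with its SE (horizontal axes) of the 8 genes in 4 comparisons: HFD against chow in WT and in meKO, and meKO against WT on chow and on HFD. The filled circle, Gng5 in WT, is the only tested value with an edgeR adjusted p under 0.05. Grey squares mark the diet values of Gngt2, and its open circles for genotype are given as a description.

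Between genotypes, 0 of the 7 genes other than Gngt2 were called by edgeR on chow (background 0.0810%) and 0 on HFD (background 0.0810%). Of these 7, Gnb4 was the only gene on chow with an unadjusted p under 0.05 (background 19.8%). Gnb4 was higher in all 3 meKO libraries than in all 3 WT libraries, as Gngt2 was (background of groups without overlap 17.1%, with 8.87% higher). DESeq2, which called 5.54% of the 10664 genes it gave an adjusted p on chow, called no member but Gngt2. The value of Gngt2 was 0.70 ± 0.15 on chow (SE), or 0.53 ± 0.14 without meKO chow replicate 2, and -0.00 ± 0.15 on HFD. With -0.00 on HFD the chow value is nearly the interaction turned round, so it is not independent of the choice. The chow value of Gngt2 and its DESeq2 call stand as a description. Gng5 differed by 0.33 ± 0.17 on chow (edgeR adjusted p = 0.291) and passed without WT chow replicate 3 (0.56; 0.0250). Gnb4 was higher in meKO by 0.49 ± 0.19 on chow (adjusted p = 0.179), 0.50 ± 0.18 on HFD (0.940) and 0.50 ± 0.13 averaged over diets (0.149). DESeq2 called the averaged value (adjusted p = 0.0315, range 0.00541 to 0.340), and it passed in edgeR without WT chow replicate 3 (0.0354) or replicate 1 of meKO HFD (0.0378). On HFD 1 of the 7, Gnb4, had an unadjusted p under 0.05 (background 4.56%), and DESeq2 called 0 (background 0.430%). The interaction of genotype and diet was called for 0 of the 7 tested genes by edgeR (background 0.0162%) and by DESeq2 (background 0.122%). By edgeR 0 had an unadjusted p under 0.05 (background 6.13%), with adjusted p-values from 0.800 to 0.995. The WT chow libraries enter both the diet comparison in WT and the genotype comparison on chow, so these are not independent.

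Averaged over genotypes, 1 of the 7 tested genes was called for diet by edgeR, Gng5, which rose (background 30.2%, 14.9% higher and 15.3% lower), and 6 of the 7 had an unadjusted p under 0.05 (background 43.7%). Gng5 was also the 1 gene of the 7 whose 6 chow and 6 HFD libraries did not overlap (background 5.76%, with 2.99% higher). The gene outside the 6 was Gnb1, with an unadjusted p of 0.194. Gng2 (-0.18 ± 0.07, SE; adjusted p = 0.0650), Gng12 (-0.23 ± 0.10; 0.0942) and Gnb2 (0.18 ± 0.08; 0.0882) missed the threshold. Gng2 passed without meKO chow replicate 1 (0.0481), Gng12 without meKO HFD replicate 3 (0.0488), Gnb2 without WT chow replicate 3 (0.0294), and Gng10 without WT chow replicate 3 (0.00668) or replicate 3 of meKO HFD (0.0440). Averaged over diets, 0 of the 7 were called by edgeR (background 0.170%). Gnb4 alone of the 7 had an unadjusted p under 0.05 (background 17.7%). The meKO value was the higher for all 8 genes, with log2 differences of 0.02 in Gng10 to 0.50 in Gnb4. Several of these signs turned under other settings: with library totals Gng10 stood at -0.03 and Gng2 at -0.01.

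Levels of different genes were compared per kilobase of exon. With all annotated exons of a gene merged, the median over the 12 libraries was 135.1 CPM per kb for Gngt2, 72.9 for Gng10, 48.0 for Gng2, 29.2 for Gng12 and 22.3 for Gng5. The order did not hold in every group: in WT chow Gng10 averaged 63.8 ± 9.71 CPM per kb and Gngt2 58.8 ± 8.80 (SD, n = 3). Among beta genes it was 153.3 CPM per kb for Gnb1, 127.7 for Gnb2 and 0.941 for Gnb4. The ranges over libraries overlapped between Gngt2 (49.7 to 195.4) and both Gng10 (57.6 to 87.8) and Gng2 (42.5 to 55.2), between Gng12 (24.2 to 38.6) and Gng5 (13.4 to 33.3), and between Gnb1 (132.6 to 173.1) and Gnb2 (101.7 to 146.7). The order turned on the length used: with the principal transcript of each gene, chosen after seeing the data, Gng2 led the gamma genes at 368.4 CPM per kb, ahead of Gngt2 at 159.8, and Gnb2 led the beta genes at 169.5, ahead of Gnb1 at 153.9. Gng2 has 4390 bases of merged exon and 572 bases in that transcript, the widest gap of the 8.

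The make-up of the gamma transcripts differed between diets under both lengths. Gngt2 took 24.8% ± 3.64 of the summed gamma level per kb in WT chow, 47.1% ± 2.64 in WT HFD, 33.5% ± 4.14 in meKO chow and 45.9% ± 0.754 in meKO HFD (SD, n = 3; merged exons, Gng11 included). With the principal transcripts the same shares were 10.6% ± 1.84, 26.0% ± 2.11, 15.7% ± 1.997 and 24.8% ± 0.532. The share of Gng2 stood at 21.99% ± 1.12 in WT chow, 12.02% ± 0.825 in WT HFD, 17.9% ± 0.661 in meKO chow and 12.6% ± 0.250 in meKO HFD by merged exons. By counts alone, with no length used, the ratio of Gngt2 to Gng2 was 0.408 to 0.582 in WT chow and 1.53 to 1.92 in WT HFD. In meKO the ratio was 0.703 to 0.925 on chow and 1.55 to 1.57 on HFD. Gngt2 thus had fewer reads than Gng2 in all 6 chow libraries and more in all 6 HFD libraries. Gngt2 has 1877 bases of merged exon and Gng2 4390. A length bias that differs between libraries, as in WT chow replicates 1 and 2, therefore does not cancel in this ratio. These shares and ratios rest on the Gngt2 values that chose the family and carry no test.

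**Figure D3:**
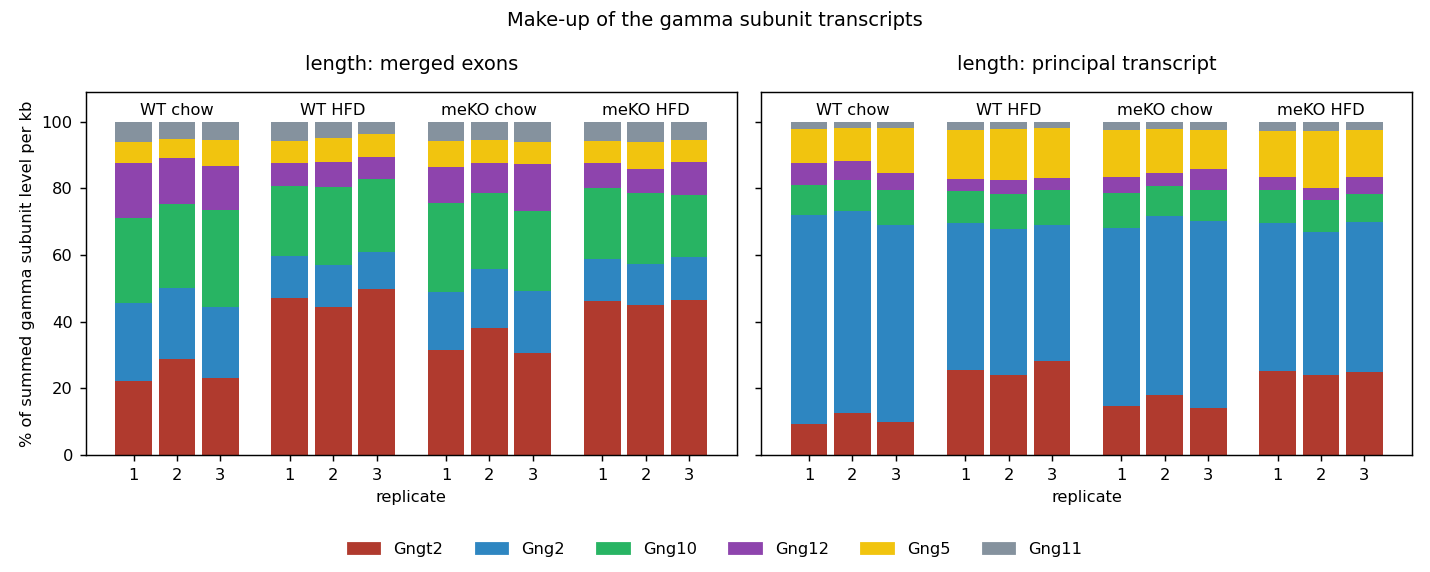
Share of the summed gamma subunit level per kb (vertical axis, percent) taken by 6 gamma genes in each of the 12 libraries, with length from merged exons (left) or from the principal transcript (right). The Gngt2 share is larger in each HFD library than in each chow library under both lengths, and Gng2 leads in every library on the right; on the left Gngt2 leads in every library but WT chow replicates 1 and 3, where Gng10 does.

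Gngt2 overlaps a gene on the other strand. Abi3 (Entrez gene 66610) lies at chr11:95830072-95842476 on the minus strand, so that the 5′ ends of both genes overlap, with 234 exon bases in common, 12.5% of the exon bases of Gngt2. Abi3 belongs to a family of adaptors that regulate actin. Abi3 stood at 25.7, 38.9 and 25.02 CPM in WT chow, 55.7, 55.9 and 59.4 in WT HFD, 41.3, 38.6 and 34.4 in meKO chow, then 74.4, 44.7 and 51.9 in meKO HFD. It rose by 0.93 ± 0.19 in WT (SE; edgeR adjusted p = 0.0126) and by 0.76 ± 0.14 averaged over genotypes (0.00461), and its value in meKO was 0.58 ± 0.19 (0.217). The WT rise missed the threshold without WT chow replicate 1 (adjusted p = 0.0719) or WT HFD replicate 3 (0.0673). Whether the counts use strand is not given in the sources used here, so reads from the shared bases cannot be assigned to one gene. The same holds for Gng2, which has 897 exon bases, 20.4% of its own, in common with Gm48283. That gene lies on the other strand and is not in the count table. Gngt2 had 3.24 to 7.84 times the counts of Abi3 in every library, and the mean ratio was 3.78 ± 0.624 in WT chow, 5.67 ± 0.529 in WT HFD, 4.72 ± 0.967 in meKO chow and 5.99 ± 1.91 in meKO HFD (SD, n = 3), with overlap in meKO. On the other side of Gngt2, 4833417C18Rik was near the floor, at 0.311 to 1.35 CPM, and was not called (diet in WT, 0.43 ± 0.41, adjusted p = 0.457).

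The genes most like Gngt2 in pattern were taken by Pearson's r of log2 CPM over the 12 libraries, among 11499 genes averaging 1 CPM or more. They were Nptn (r = 0.968), a neural cell adhesion molecule, Dap3 (0.966), a mitochondrial ribosomal protein, Tpi1 (0.959), the glycolytic enzyme triosephosphate isomerase, Coq10b (0.958), a coenzyme Q binding protein, and Tnfrsf12a (0.956), the receptor for TWEAK. Tpi1 for instance stood at 396.4 to 445.9 CPM in WT chow, 692.9 to 759.5 in WT HFD, 523.2 to 742.1 in meKO chow and 723.5 to 822.0 in meKO HFD. With each group mean subtracted the leading genes were Cd38 (0.966), Glrx (0.911), Ms4a6d (0.910), Fads3 (0.909) and Arl6ip1 (0.908), and Nptn stood at 0.858. Of the 7 other members, Gng5 was the most like Gngt2 (r = 0.862), followed by Gng10 (0.744), Gnb2 (0.698) and Gnb4 (0.610), while Gnb1 (-0.423), Gng12 (-0.617) and Gng2 (-0.620) ran the other way. With group means subtracted that order changed: Gng2 stood at 0.440, Gng5 at 0.388, Gng10 at 0.303, Gnb4 at -0.081, Gnb2 at -0.147, Gng12 at -0.364 and Gnb1 at -0.451. The points share libraries, depth and the 4 groups, and no test is attached.

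The genes around the beta-gamma pair were read from 7 lists holding 117 genes, 97 of them in the table. In WT on HFD 5 rose and 15 fell, 20.6% of the 97, against 21.3% of all genes (9.50% higher, 11.8% lower). Averaged over genotypes 15 rose and 22 fell, 38.1% against 30.2% (14.9% higher, 15.3% lower). In meKO alone 0 of the 97 were called by edgeR (background 0.105%) and 2 by DESeq2 (background 1.84%). At an unadjusted p under 0.05 there were 19 (19.6% of them against 15.9% of all genes). The WT count rested on single libraries, as did the share of all genes called, given here in brackets. The WT count was 1 without WT chow replicate 1 (1.05%), 4 without WT chow replicate 2 (2.59%) and 39 without WT chow replicate 3 (39.9%). It was 6 without WT HFD replicate 1 (3.73%) and 0 without WT HFD replicate 3 (0.778%). The averaged count was 20, 17, 15, 20 and 23 without WT chow replicate 1, WT chow replicate 2, WT HFD replicate 3, meKO chow replicate 3 and meKO HFD replicate 2. In those fits 15.9% to 18.1% of all genes were called, against 30.2% with all libraries. Adjusted p-values below are from edgeR for diet averaged over genotypes.

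**Figure D4:**
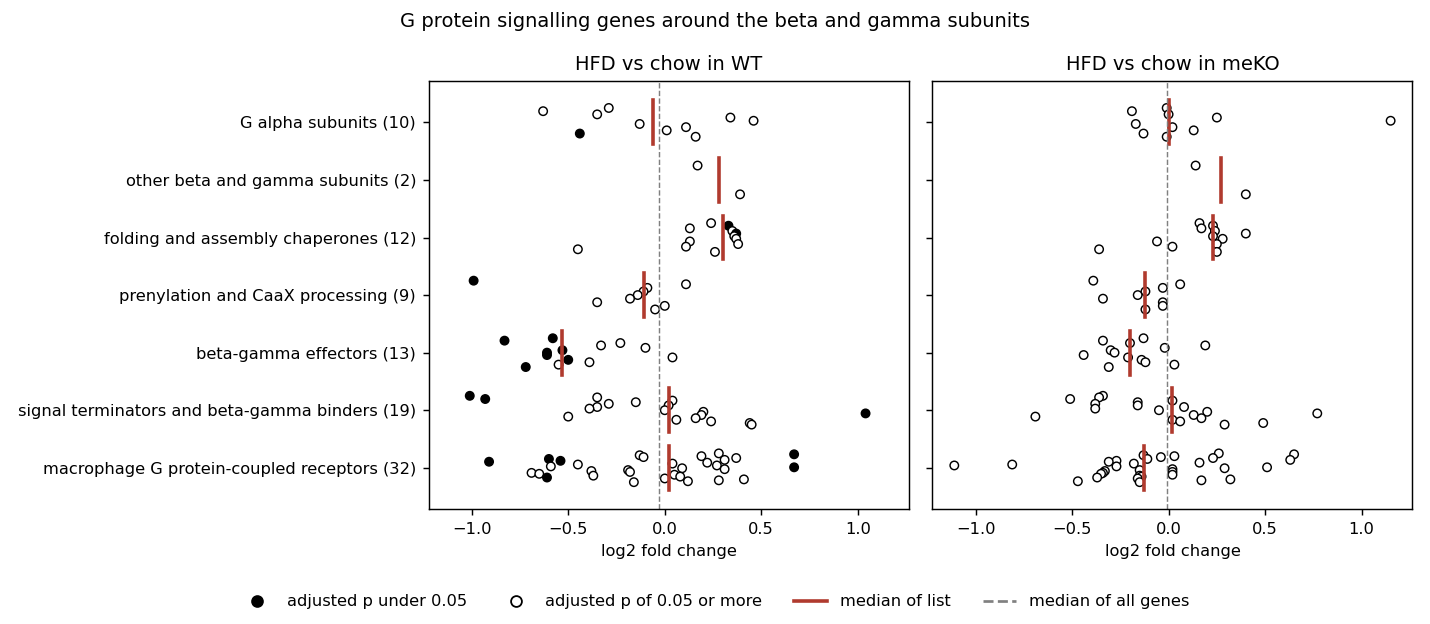
Log2 fold change on HFD (horizontal axes) of every listed gene in the table, by list, in WT (left) and meKO (right); points are genes, red bars list medians and the dashed line the median of all genes. Effector genes lie mostly below 0 in WT, with 7 of 13 filled (adjusted p under 0.05), and no point is filled in meKO.

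Of the other beta and gamma subunits 2 of 9 were in the table. Gng11, the farnesylated gamma subunit shown above, stood at 12.2, 10.8 and 12.8 CPM in WT chow and 18.6, 14.9 and 13.5 in WT HFD, and at 14.3, 15.04 and 15.7 CPM in meKO on chow and 18.5, 23.3 and 17.9 on HFD. HFD and chow libraries did not overlap within either genotype. Gng11 rose by 0.40 ± 0.10 (SE; adjusted p = 0.0152), but the length and GC correction brought it to 0.09 (0.572). Gnb5, the beta subunit that pairs with a class of RGS proteins, stood at 3.42 to 4.98 CPM in all libraries and did not pass (0.15 ± 0.12; 0.349).

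Among beta-gamma effectors, 13 of 17 were in the table, and 7 fell and 0 rose both in WT and averaged, 53.8% of the 13, where 11.8% and 15.3% of all genes fell. Their median log2 difference was -0.53 in WT and -0.20 in meKO, against -0.03 and -0.01 over all genes. Pik3cg, the catalytic subunit of phosphoinositide 3-kinase gamma, stood at 70.8, 70.5 and 63.9 CPM in WT chow and 50.03, 49.5 and 42.4 in WT HFD, and at 51.8, 51.7 and 64.8 CPM in meKO on chow and 45.6, 44.9 and 46.2 on HFD, with no overlap in either genotype. It fell by 0.42 ± 0.08 on the log2 scale (SE; adjusted p = 0.00622). Its adaptors Pik3r5 (-0.45 ± 0.12; 0.0167) and Pik3r6 (-0.53 ± 0.12; 0.00983) fell too. Elmo1, part of a guanine exchange complex for Rac, fell by 0.59 ± 0.10 (0.00461), from 63.5, 60.8 and 45.2 CPM in WT chow to 29.8, 35.3 and 30.3 in WT HFD, and its meKO value of -0.34 ± 0.15 did not pass (0.296). Plcb2, a phospholipase C, fell by 0.32 ± 0.10 (0.0309). Grk2, the receptor kinase that beta-gamma recruits, did not pass (-0.22 ± 0.08; 0.0527). The length and GC correction ended the averaged calls of Pik3r5 (-0.22; 0.0617) and Plcb2 (-0.09; 0.325), and it moved Pik3cg to -0.22 (0.0394). In WT it ended the calls of all 3, with Pik3cg at -0.23 (0.138), Pik3r5 at -0.28 (0.104) and Plcb2 at -0.14 (0.280). Plcb2 was also lost in 8 of the 12 fits with 1 library left out, those of WT chow replicates 1 and 2, WT HFD replicates 1 and 3, meKO chow replicates 1 and 3 and meKO HFD replicates 2 and 3.

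Of the folding and assembly chaperones 12 of 13 were in the table, and 7 rose and 1 fell averaged over genotypes (all genes: 14.9% and 15.3%), and 2 rose and 0 fell in WT alone (all genes: 9.50% and 11.8%). The 7 include subunits of the CCT chaperonin, which folds beta subunits together with actin, tubulin and many other proteins. Cct6a stood at 95.0, 95.3 and 113.2 CPM in WT chow and 124.4, 125.4 and 142.2 in WT HFD, and at 104.5, 118.7 and 101.8 CPM in meKO on chow and 125.0, 162.6 and 142.2 on HFD, with no overlap within either genotype. It rose by 0.39 ± 0.09 (SE; adjusted p = 0.00911), Cct3 by 0.28 ± 0.07 (0.0142) and Cct8 by 0.33 ± 0.09 (0.0220). Ric8b, a chaperone of Gs-type alpha subunits, fell by 0.41 ± 0.11 (0.0194). Ric8b missed the threshold without WT HFD replicate 3 (adjusted p = 0.0566) or meKO chow replicate 3 (0.0536). Cct8 missed it without any 1 of WT chow replicates 1 (0.0594) and 2 (0.0569), WT HFD replicate 3 (0.0645), replicate 3 of meKO chow (0.0580) and replicate 2 of meKO HFD (0.0539).

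Of the 9 prenylation and CaaX processing genes, all in the table, 1 fell and 0 rose averaged over genotypes, 11.1% against 30.2% of all genes (14.9% higher, 15.3% lower). The gene was Fdps, which makes farnesyl diphosphate, the farnesyl donor and a precursor of cholesterol. Fdps stood at 5.91, 3.95 and 6.68 CPM in WT chow and 2.49, 3.03 and 2.80 in WT HFD, with no overlap. In meKO it stood at 3.67, 4.75 and 5.29 CPM on chow and 3.85, 3.17 and 3.42 on HFD, with overlap. It fell by 0.69 ± 0.15 averaged over genotypes (SE; adjusted p = 0.00891), and its meKO value of -0.39 ± 0.21 did not pass (0.372).

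Of 16 alpha subunits 10 were in the table, and 1 rose and 1 fell averaged over genotypes. That was 2 of the 10, against 30.2% of all genes (14.9% higher, 15.3% lower). Gnaq, the alpha subunit that activates phospholipase C beta, fell by 0.28 ± 0.08 (SE; adjusted p = 0.0168), a call lost with the length and GC correction (-0.12; 0.103). Gnai1 rose by 0.80 ± 0.27 (0.0394) at a low level of 0.242 to 0.873 CPM, and that call was lost in 10 of the 20 alternatives run for it. Those 10 were DESeq2, the length and GC correction and 8 fits with 1 library left out: either of WT chow replicates 1 and 2, WT HFD replicates 1 and 3, meKO chow replicates 2 and 3 and meKO HFD replicates 2 and 3. The abundant alpha genes did not pass: Gnai2, of the inhibitory class, stood at 395.2 to 623.6 CPM (-0.15 ± 0.10; 0.266) and Gnas, of the stimulatory class, at 545.8 to 696.0 CPM (0.08 ± 0.07; 0.436). Gnas passed with the length and GC correction (0.40; 0.0282).

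Among signal terminators and beta-gamma binders, 19 of 20 were in the table, and 3 rose and 6 fell averaged over genotypes. That was 47.4% of the 19, against 30.2% of all genes (14.9% higher, 15.3% lower). Rgs1, which speeds the shut-off of alpha subunits, stood at 222.6, 225.4 and 237.2 CPM in WT chow and 455.6, 358.1 and 591.9 in WT HFD, without overlap. The meKO libraries overlapped, at 262.7, 311.4 and 208.0 CPM on chow and 305.3, 558.1 and 469.7 on HFD. Rgs1 rose by 0.90 ± 0.15 averaged over genotypes (SE; adjusted p = 0.00418), and its meKO value of 0.77 ± 0.22 did not pass (0.173). Rgs2 rose by 0.47 ± 0.13 (0.0216). The arrestins, which uncouple receptors from G proteins, both fell: Arrb1 by 0.68 ± 0.13 (0.00585; -0.40 with the length and GC correction) and Arrb2 by 0.35 ± 0.10 (0.0193). The calls of Rgs2 and Arrb2 were lost without WT chow replicate 2 (adjusted p = 0.0526 and 0.0512) or WT HFD replicate 3 (0.0625 and 0.0565), and that of Rgs2 also without meKO HFD replicate 2 (0.0541).

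Of 33 macrophage receptors 32 were in the table, and 3 rose and 6 fell averaged over genotypes, 28.1% against 30.2% of all genes (14.9% higher, 15.3% lower). Adora2b, an adenosine receptor, stood at 4.44, 4.57 and 5.22 CPM in WT chow, 6.08, 8.09 and 8.45 in WT HFD, 6.38, 6.43 and 5.08 in meKO chow, then 9.04, 9.76 and 9.41 in meKO HFD. It rose by 0.66 ± 0.11 (SE; adjusted p = 0.00418). Gpr183, an oxysterol receptor, rose by 0.59 ± 0.13 (0.00882). Ptafr, the receptor for platelet-activating factor, fell by 0.49 ± 0.09 (0.00510) and Cmklr1, the chemerin receptor, by 0.41 ± 0.11 (0.0175).

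Markers of other cells were summed per library from lists for 12 further cell types. The non-classical monocyte list, 8 of 9 genes with Cd300e not listed, summed to 197.6 to 284.8 CPM in WT chow, 274.9 to 334.1 in WT HFD, 275.6 to 291.6 in meKO chow and 241.6 to 293.6 in meKO HFD. Most of that sum was Fcgr4, at 139.8 to 288.6 CPM, which macrophages also express. The mesothelium and fibroblast list, 9 of 9 genes, summed to 50.8 to 91.1 CPM in WT chow, 92.2 to 137.9 in WT HFD, 50.1 to 96.0 in meKO chow and 111.1 to 139.2 in meKO HFD. Its sum was thus higher on HFD in both genotypes, as Gngt2 and Gng5 were. Dcn was its largest gene. In WT only Dcn (0.86, edgeR adjusted p = 0.0159) and Krt19 (1.35, 0.0178) of the list were called, and in meKO no gene of it was. The B cell list, 6 of 8 genes with Pax5 and Ebf1 not listed, summed to 53.1 to 77.6 CPM in WT chow against 25.6 to 44.4 in WT HFD, and to 35.8 to 71.9 in meKO chow against 24.4 to 44.4 in meKO HFD. In WT 3 more lists were lower in every HFD than in every chow library: dendritic cell (6 of 6 genes, 31.3 to 46.7 CPM on chow and 15.9 to 24.3 on HFD), neutrophil (7 of 10, with Ly6g, Camp and Ngp not listed, 156.4 to 200.3 and 140.8 to 150.4) and eosinophil (3 of 5, 19.9 to 28 and 14.1 to 19.0). These 3 overlapped between diets in meKO, where the T and NK cell list (9 of 9) was higher on HFD, at 35.0 to 39.7 CPM against 24.6 to 32.1. The neutrophil genes did not move together in WT. Csf3r, the largest part of that sum at 64.3 to 119.5 CPM, fell (-0.60, edgeR adjusted p = 0.0171), as did Retnlg (-0.96, 0.0394). S100a8 (0.76, 0.0396) and S100a9 (1.48, 0.0224) rose. The classical monocyte, mast cell, resident peritoneal macrophage, endothelium and platelet lists overlapped between diets in both genotypes. The part of these cells in the values of the 8 genes was not tested.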

How the data were processed

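The authors deposited whole-number counts per gene for 12 libraries, 3 in each of 4 groups taken from the sample titles; 186 genes without a symbol hold 0.440% of the counts. The submitters' processing notes name build mm10 and DESeq2; the aligner, counter, annotation and strand setting are not given in the sources used here. The main test was edgeR's (4.0.16, R 4.3.3; TMM factors, filterByExpr, which kept all 12339 genes, robust quasi-likelihood F tests, 4 group means over all 12 libraries, 7 contrasts). Benjamini-Hochberg adjustment ran over all genes, with calls under 0.05. The SE is the log2 fold change divided by the square root of F. Replicates were numbered in sample order. Their pairs differed beyond sampling noise (chi-square per degree of freedom at least 16.9). The code was tested on simulated data. The members and gene lists were chosen with earlier results of these data known. Text names all 8 members, set signalling genes, and per list up to 4 genes with the smallest p among those called for diet averaged over genotypes, plus genes next to Gngt2 and the 5 most like it on each of 2 measures. Gng5-ps was named after its values were seen. Alternatives (22 settings) included DESeq2 1.42.0, voom in limma 3.58.1, other scalings and filters, a length and GC offset (12049 genes with values, 97.6%), and leaving out each library. Lengths and sequences come from GENCODE and RefSeq for GRCm38.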

Additional observations from a re-analysis of the deposited data

How the results depend on the processing

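With 3 libraries per group, calls depended on single libraries and on the tool, and gene lengths limit comparisons between genes. The Gngt2 difference lay between 1.40 and 1.67 in WT and between 0.75 and 1.02 in meKO over 22 alternatives. Percentages in brackets below are the share called among the genes given an adjusted p under the same setting. With DESeq2 these were 12099 genes for diet in WT and 10664 for genotype on chow. Of the 7 tested members, the number called for diet in WT (1) became 3 with library totals (22.2%), 4 with DESeq2 (28.5%) and 5 with voom and library quality weights (52.0%). It was 2 in the 6 libraries alone (16.7%) and 2 with the length and GC correction (13.1%). With 1 library left out it was 0 to 3: 0 without WT chow replicate 1 (1.05%) or 2 (2.59%) or WT HFD replicate 1 (3.73%) or 3 (0.778%), and 3 without WT chow replicate 3 (39.9%). Averaged over genotypes (1) it became 2 with median-of-ratios factors (29.9%), 3 with library totals (30.4%), 3 with DESeq2 (34.4%) and 5 with quality weights (51.0%). The length and GC correction gave 3 (22.9%). With 1 library left out the averaged number was 1 to 4. It was 4 without WT chow replicate 3 (43.2%) and 3 without meKO HFD replicate 3 (22.2%). It was 2 without replicate 1 of meKO chow (24.4%) or of meKO HFD (35.8%). For genotype on chow, Gngt2 was counted among 8 members, although its value is given as a description only. The number (0) became 1 with DESeq2 (5.54%), namely Gngt2, and 3 with quality weights (32.8%). It was 0 to 2 with 1 library left out, with 2 without WT chow replicate 3 (20.6%). Averaged over diets (0), also over 8 members, it became 1 with DESeq2 (2.97%) and 3 with quality weights (31.1%). Leaving out 1 library gave 0 to 1, with 1 without WT chow replicate 3 (11.3%) or replicate 1 of meKO HFD (0.575%). The number of members called stayed 0 for diet in meKO, genotype on HFD and the interaction under every alternative run. Of 97 pathway genes, those called for diet in WT (20) became 49 with quality weights (52.0%). With 1 library left out they ran from 0 without WT HFD replicate 3 (0.778%) to 39 without WT chow replicate 3 (39.9%). In meKO (0) they became 2 with DESeq2 (1.84%) and 5 with quality weights (3.23%). They were 0 to 1 with 1 library left out there, with 1 without meKO HFD replicate 1 (1.09%). For genotype on chow (0) they became 4 with DESeq2 (5.54%) and 26 with quality weights (32.8%). Leaving out 1 library gave 0 to 12, with 12 without WT chow replicate 3 (20.6%). Averaged over genotypes (37) they ran from 15 to 44 with 1 library left out, where 15.9% to 43.2% of all genes were called.

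Values that changed sign were all uncalled, and the cause was not tested. With the length and GC correction Gng10 stood at -0.05 (diet in WT), -0.08 (diet in meKO), -0.07 (diet averaged), -0.12 (genotype on chow) and -0.13 (genotype averaged), Gng12 at 0.00 (diet in meKO) and 0.05 (genotype on chow), Gng2 at 0.11 (genotype on chow), Gnb2 at -0.02 (genotype on HFD) and Gnas at 0.14 (diet in meKO). With library totals Gng10 stood at -0.03 and Gng2 at -0.01 (genotype averaged), Gnb1 at -0.00 and Gnb2 at -0.01 (genotype on HFD). With quality weights Gng12 stood at 0.12 (diet in meKO), Gnb2 at -0.03 and Gngt2 at 0.02 (genotype on HFD). The interaction of Gnb4 (0.01) became -0.01 with median-of-ratios factors, -0.00 with a minimum of 10 counts, -0.01 with DESeq2, -0.04 with limma-voom, -0.18 with the length and GC correction and -0.21 to 0.19 with 1 library left out. Leaving out 1 library gave, for genotype on HFD, -0.03 to 0.08 in Gnb1, -0.06 to 0.04 in Gnb2, -0.20 to 0.00 in Gng10, -0.12 to 0.19 in Gng5 and -0.09 to 0.09 in Gngt2. For genotype averaged it gave -0.04 to 0.09 in Gng10, -0.01 to 0.13 in Gng12 and -0.01 to 0.07 in Gng2. It gave -0.20 to 0.11 in Gng12 and -0.08 to 0.03 in Gnas for diet in meKO, and -0.08 to 0.03 in Gng2 for genotype on chow. No paired analysis was possible because the labels give no replicate numbers.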
